A study of Cristatella mucedo with 12 samples.

Results

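The late statoblast stages of the freshwater bryozoan Cristatella mucedo, day 4 and day 6 of differentiation, were set against mature colonies of the same isolate. The late stages are 2 of the 12 libraries of the series, 1 library for each day, and the mature colonies are 8, with 2 libraries from each of 4 zones. They were chosen by their titles, and all 35949 gene models of the table were used. The other 2 libraries, from statoblasts just taken from the freezer and from day 2, serve as the early stages.

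The late material was day 4 and day 6, for which thawed statoblasts had been left to grow in an aquarium at room temperature before each whole young colony was sequenced. The mature material came from adults collected in a freshwater stream and held in an aquarium. Colonies of one kind, called round here for short, were cut into an edge zone and a central zone, and elongated ones into an end part and a middle part. All libraries carry the labels isolate SBPEP1 and wildtype, no treatment other than freezing is given for the stages, and mature ages are not stated. A limit of the stages as a model is that each stands on 1 library, although the labels mention 2 biological replicates per sample. The p-values of late against mature therefore rest on 2 libraries of different days, and whether replicates came from separate colonies is not said.

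Bryozoans are colonial filter feeders whose units, the zooids, arise by budding. Statoblasts are dormant buds of freshwater species, sealed in a resistant capsule, from which a new colony germinates when conditions allow. In a mature Cristatella colony, budding goes on near the margin while older zooids sit further in. The files do not pair nuclear identifiers with gene names, so these models are described by their position on a contig, and only the 16 mitochondrial models carry names. Tissue or cell type markers could not be matched for the same reason.

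The late libraries held 5429331 counts at day 4 and 7805888 counts at day 6, and the mature libraries 14787598 to 26089274 counts. Of the models with a count, values with a fraction other than 0.5 made up 6.87% at day 4 and 7.72% at day 6, against 26.6% to 32.2% in the mature libraries. Depth and the share of fractional values thus both differed with the comparison itself. Whether that share follows depth was not tested, and their part in the differences below cannot be told apart from stage by these groups. Levels are given as CPM, the counts scaled to a common library total, and a count of 3 corresponds to 0.553 CPM at day 4, 0.384 CPM at day 6 and 0.115 to 0.203 CPM in the mature libraries. In RNA from whole colonies or zones, fewer cells of a type and less RNA per cell cannot be told apart.

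Most gene models differed between the late stages and mature colonies, and on TMM scaling falls were called more often than rises and were larger. The test took in 18896 models, and it called 4962 higher and 8088 lower in the late stages (quasi-likelihood test of edgeR, adjusted p under 0.05 after Benjamini and Hochberg), which is 69.1% of them, with 26.3% higher and 42.8% lower. A fitted change of at least 4-fold was reached by 1859 of those higher and 6101 of those lower, or 9.84% and 32.3% of the models tested. The median log2 fold change, late over mature, was 1.69 among the higher and -3.79 among the lower models. With models at 0 counts in both late libraries set to a floor of 3 counts per library, the median of the lower models was -2.73. CPM in both late libraries lay wholly outside the mature range for 71.7% of the models tested, 6880 above it and 6677 below it, and for 11563 of the 13050 called.

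The balance of the directions depended on scaling. With library totals alone in place of TMM factors, 6651 models were higher and 6594 lower, and the median log2 change over everything tested moved to -0.03, against -0.54. Taken by day, library totals gave 5374 higher and 5082 lower at day 4, and 5626 higher and 5185 lower at day 6, so that rises outnumbered falls. An unadjusted p under 0.05 was found for 13533 models.

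**Figure D1:**
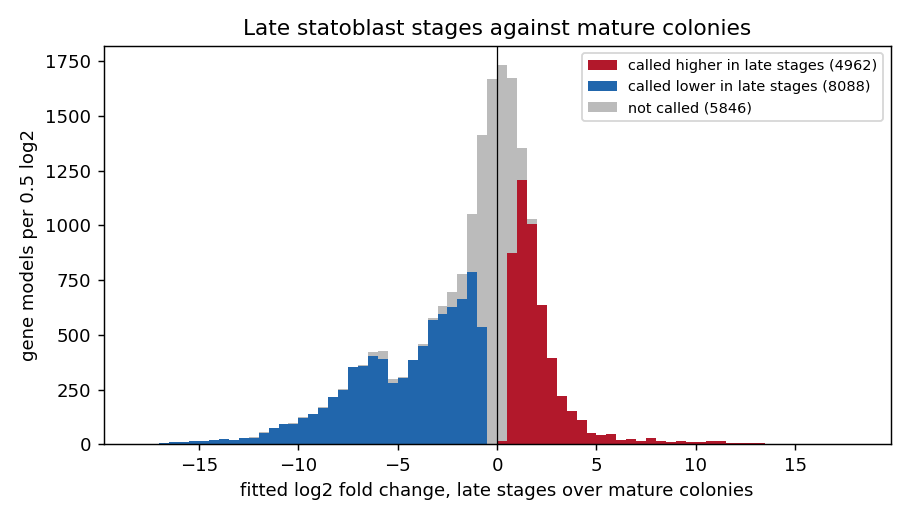
Number of gene models (vertical axis) by fitted log2 fold change of the late stages over mature colonies (horizontal axis, bins of 0.5), stacked by the edgeR call. The 8088 models called lower spread far to the left of 0, while the 4962 called higher have a median of 1.69.

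The share of counts taken by the models with large changes differed between late and mature libraries. Models called at least 4-fold higher took 14.7% of all counts at day 4 and 14.4% at day 6, against 0.791% to 1.22% in the mature libraries. Models called at least 4-fold lower took 2.43% at day 4 and 3.07% at day 6, against 19.4% to 32.5% in the mature libraries. Among the mature libraries the share of the lower models was smallest at the edge, at 19.4% and 19.7% in edge zone replicates 2 and 3. These models were picked on the same libraries, so the shares describe them and support nothing further.

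Taken singly, both days were far from the mature colonies. With each day as its own group, 3648 models were higher and 6680 lower at day 4, 52.3% of 19751 tested, and 4144 were higher and 6658 lower at day 6, or 54.7% (edgeR with TMM, adjusted p under 0.05). Both comparisons use the same 8 mature libraries, and the lone library of each day is assumed to vary as the mature ones do.

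A set of models with counts in every mature library was at 0 counts in both late libraries. At 0 counts in both late libraries and at 5 CPM or more in every mature library there were 213 models, spread over 100 contigs, with a median mature mean of 41.8 CPM and a highest of 3160 CPM. Of these, 203 also had 0 counts in the freezer and day 2 libraries. That is near the share among all tested models at 0 counts in both late libraries, 1668 of 1842. The median level of the 213 was 18.6 and 18.3 CPM in edge zone replicates 2 and 3. In the other 6 mature libraries it was 37.7 to 54.2 CPM. In summed share they took 1.32% and 1.58% of counts at the edge and 2.68% to 4.47% elsewhere in the mature colony. Reads of the 213 were shared or their models overlapped in every case, so none could be counted from whole reads alone. Only 434 of the 18896 models tested had whole-number values in all 12 libraries and no overlap, so this is common to most models.

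The reverse set was small. At 0 counts in all 8 mature libraries and at 5 CPM or more in both late libraries there were 18 models, on 11 contigs. Median levels were 20.0 CPM for the freezer, 32.1 for day 2, 20.2 for day 4 and 16.6 for day 6. Only 2 of the 18 had 0 counts in the freezer library and 1 at day 2, so most had counts before germination.

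By the rule for named models, with whole-number values, no overlap and a mean log2 CPM of at least 5, 1 rise and 0 falls qualified. It was g8405, on contig 12 from base 6635023 to base 6636615, at 2250 CPM at day 4 and 2300 CPM at day 6. In the mature libraries g8405 had a lowest level of 0.0676, a median of 0.167 and a highest of 0.350 CPM. Both late libraries stood far above all 8 mature ones. The fitted log2 change was 12.98, with an SE of 0.42 (edgeR adjusted p = 3.74e-10). The earlier stages had 0 CPM (freezer) and 107 CPM (day 2), so most of the increase came after day 2.

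Falls were named only after the level limit was lowered to a mean log2 CPM of 1, a choice made after the values were seen. The model g11172 (contig 33, bases 3209405 to 3228213) had 0 counts in both late libraries and a lowest level of 2.28, a median of 3.30 and a highest of 7.96 CPM in the mature libraries (edgeR adjusted p = 3.30e-05). Its lowest mature library was at least 4.12-fold above 3 counts at day 4. For g17424 (contig 1, bases 1317013 to 1324066), again at 0 counts in both late libraries, the mature values had a lowest of 0.831, a median of 3.26 and a highest of 5.64 CPM (edgeR adjusted p = 0.00179). The weakest mature library, middle part replicate 2, stood at least 1.5-fold above that floor.

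Some of the models that changed at least 4-fold were neighbours on a contig. Counting stretches of at least 3 adjacent loci that all went one way, 305 runs were lower in the late stages, with 1120 loci and up to 11 in a row, and 70 were higher, with 242 loci and up to 6 in a row. Of the 16029 loci with a tested model, 33% held one called at least 4-fold lower and 11.1% one at least 4-fold higher, and the runs took in 21.2% and 13.6% of these. Whether the runs are more than such shares give by themselves was not tested. Of the lower runs, 30 had no count in either late library and 27 none in any of the 4 stages. Of the higher runs, 63 summed to at least 1 CPM in both early libraries, and 1 had no count in any mature library.

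The largest median falls were those of 3 runs. The first, of 4 loci on contig 138 (bases 108461 to 170880), had 0 counts at day 4 and at day 6, and 1001503 counts over the mature libraries. Their summed level was 1750 and 1920 CPM in the edge libraries and 5050 to 9160 CPM in the other 6 mature libraries. Even the weakest mature library was at least 3170-fold above 3 counts at day 4, and the freezer and day 2 libraries had no count either.

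A run of 6 loci on contig 32, between bases 518953 and 610615, likewise had 0 counts at day 4 and day 6. It summed to 0.701 and 1.63 CPM in the edge libraries, against 868 to 5960 CPM in the other 6 mature libraries. Here the late stages and the colony edge were both at the bottom of the range. The 6 loci of contig 10 from base 5454249 to 5579815 summed to 35.0 CPM at day 4 and 33.8 CPM at day 6. In the mature libraries they summed to 1370 to 9620 CPM. Their median model was at 0.0921 CPM at day 4 and 0 CPM at day 6, so only part of the loci carried the late sum. The longest lower run, 11 loci on contig 18 between bases 1545646 and 1769943, was of low level, with 0.921 CPM at day 4 and 0.384 CPM at day 6 against 15.9 to 42.7 CPM in the mature libraries. Both edge libraries were below the other 6 mature libraries in 216 of the 305 lower runs (70.8%), which describes runs picked on the mature mean. For single models this held in 53.6% of those called at least 4-fold lower and in 37.7% of all tested.

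The largest median rises lay on contigs 68, 6 and 65. The 5 loci of contig 68 (bases 1936451 to 1955166) reached a sum of 3830 CPM at day 4 and 3350 CPM at day 6, against 0 to 4.97 CPM in the mature libraries, with both edge libraries at 0. Their freezer and day 2 levels were higher still, at 8170 and 8050 CPM. Contig 6 held 3 such loci (bases 1349533 to 1364044), with a sum of 217 CPM at day 4 and 287 CPM at day 6, against 0 to 0.0875 CPM in the mature libraries. The 3 loci of contig 65 (bases 1956415 to 2027983) gave 171 CPM at day 4 and 156 CPM at day 6, against 0.0195 to 0.153 CPM. All 3 of these runs were already present in the freezer library, at 77.9 CPM or more.

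Calls between the late and the early stages were almost wholly increases. Among 19040 models, 1847 were called higher and 54 lower in the late than in the early stages (edgeR with late, early and mature as groups, adjusted p under 0.05), 9.98% in all, 9.7% higher and 0.284% lower. The count of calls rested on single libraries, being 788 without the freezer library and 1012 without the day 6 library. Called or not, CPM in both late libraries lay above both early ones for 6024 models and below both for 3100. Together these were 47.9% of the models. With so few libraries on each side, such separation often arises by chance, so these counts do not show how many models fell.

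The models that rose had moved toward the mature level, and most had not reached it. Median levels ran 0.178, 0.422, 5.89 and 7.56 CPM from freezer through days 2, 4 and 6, against medians of 14.5 to 23.4 CPM in the mature libraries. Below all 8 mature libraries were 92.3%, 89.2%, 63.8% and 57.4% of them in the same stage order. Above all 8 were 0.92%, 2.82%, 15.4% and 20.2% likewise. Over both late libraries together, 1010 of the 1847 stayed below the mature range, 229 lay within it, 248 above it and 360 differed between the days. Over all 18896 models tested against mature colonies, the share below the mature range was 47%, 45.1%, 39.6% and 38.2% in stage order, and the share above it 36.2%, 37.2%, 39.7% and 40.3%. The late libraries took part in choosing the 1847, so their shift between stages is a description.

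**Figure D2:**
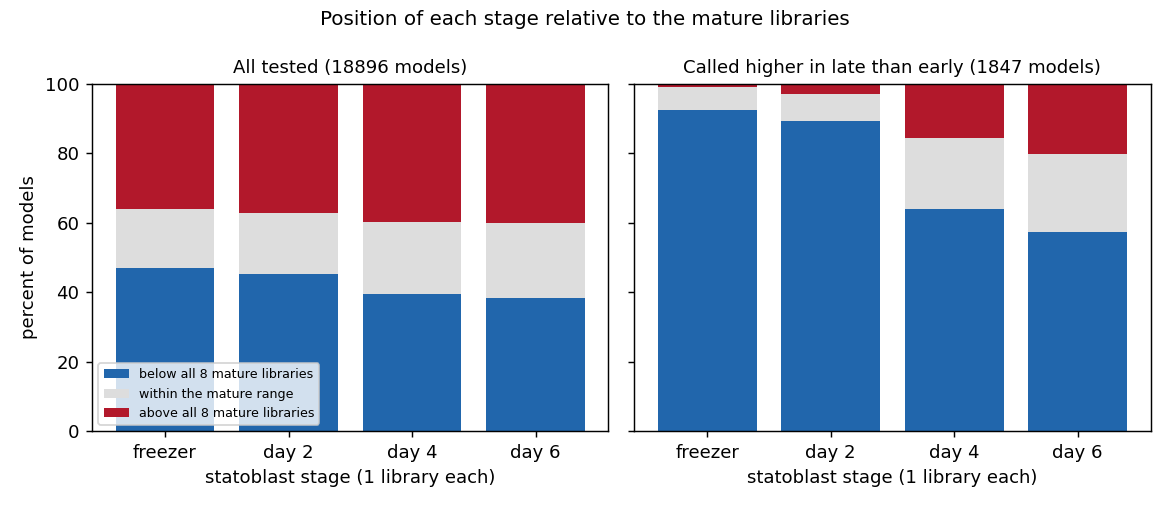
Percent of gene models (vertical axis) below, within or above the range of the 8 mature libraries, for each statoblast stage (horizontal axis, 1 library each), over the 18896 models tested and over the 1847 called higher in late than early stages. Among the 1847, the share below all mature libraries is 63.8% at day 4 and 57.4% at day 6, against over 89% in both early libraries.

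Of the models tested, 7.56% were called at least 4-fold higher and 0.116% at least 4-fold lower in late than early stages, and 34 runs of 3 or more loci with such a rise were counted, 113 loci in all, against 0 runs lower. A stretch of 6 loci on contig 1 (bases 758040 to 960689) had summed levels of 0 CPM (freezer), 0.844 CPM (day 2), 811 CPM (day 4) and 1870 CPM (day 6). The mature libraries ran from 1220 to 3940 CPM, with both edge libraries on top at 3010 and 3940 CPM, so that day 6 had entered the mature range. The 3 loci of contig 507 from base 10565 to 32467 stood at 0.106 CPM or less in the early libraries, at 509 CPM at day 4 and 399 CPM at day 6, and at 369 to 837 CPM in mature colonies.

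Another kind of course peaked in the late stages. At 5 CPM or more in both late libraries and at least 4 times the highest of the other 10 libraries there were 29 models on 20 contigs, of which 11 had whole-number values and no overlap. Day 4 was above day 6 in 18 of them and day 6 above day 4 in 11. In the freezer library 23 of them had 0 counts, and at day 2 11 had 0 counts. The rule used these values, so no test is given.

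Several of these peaks were neighbours. On contig 63, 3 adjacent loci between bases 422001 and 454892 had no count in the freezer and day 2 libraries. They summed to 1180 CPM at day 4 and 4560 CPM at day 6, against 26.6 to 101 CPM in the mature libraries, again highest at the edge with 93.0 and 101 CPM. On contig 8, 2 of the 29 models lay in a run of 4 loci called higher in late than early stages (bases 8650128 to 8703044). This run went the other way within the late stages, with sums of 0 CPM (freezer), 0.633 CPM (day 2), 327 CPM (day 4) and 119 CPM (day 6). In mature colonies the same 4 loci had 30 counts over all 8 libraries. The 3 loci of contig 23 from base 99821 to 180950 had 62.6 CPM at day 4 and 26.4 CPM at day 6, against 0.145 to 1.32 CPM in mature colonies.

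Named by their ratio to the highest other library among models counted from whole reads were g15658, which was at 0 counts elsewhere, and g5479. The model g15658 (contig 82, bases 1544581 to 1546574) had 33 counts at day 4, 59 counts at day 6 and 0 counts in all 10 other libraries. Its level of 6.08 CPM at day 4 was at least 9.60-fold above 3 counts in any of them, a smaller bound than the 119.8 of g5479 or the 56.7 of its neighbour g5478 on the same floor. The model g5479, one of the contig 8 loci (bases 8670815 to 8703044), had 192 CPM at day 4 and 75.8 CPM at day 6, no count in the freezer and day 2 libraries and at most 0.440 CPM in a mature library.

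**Figure D3:**
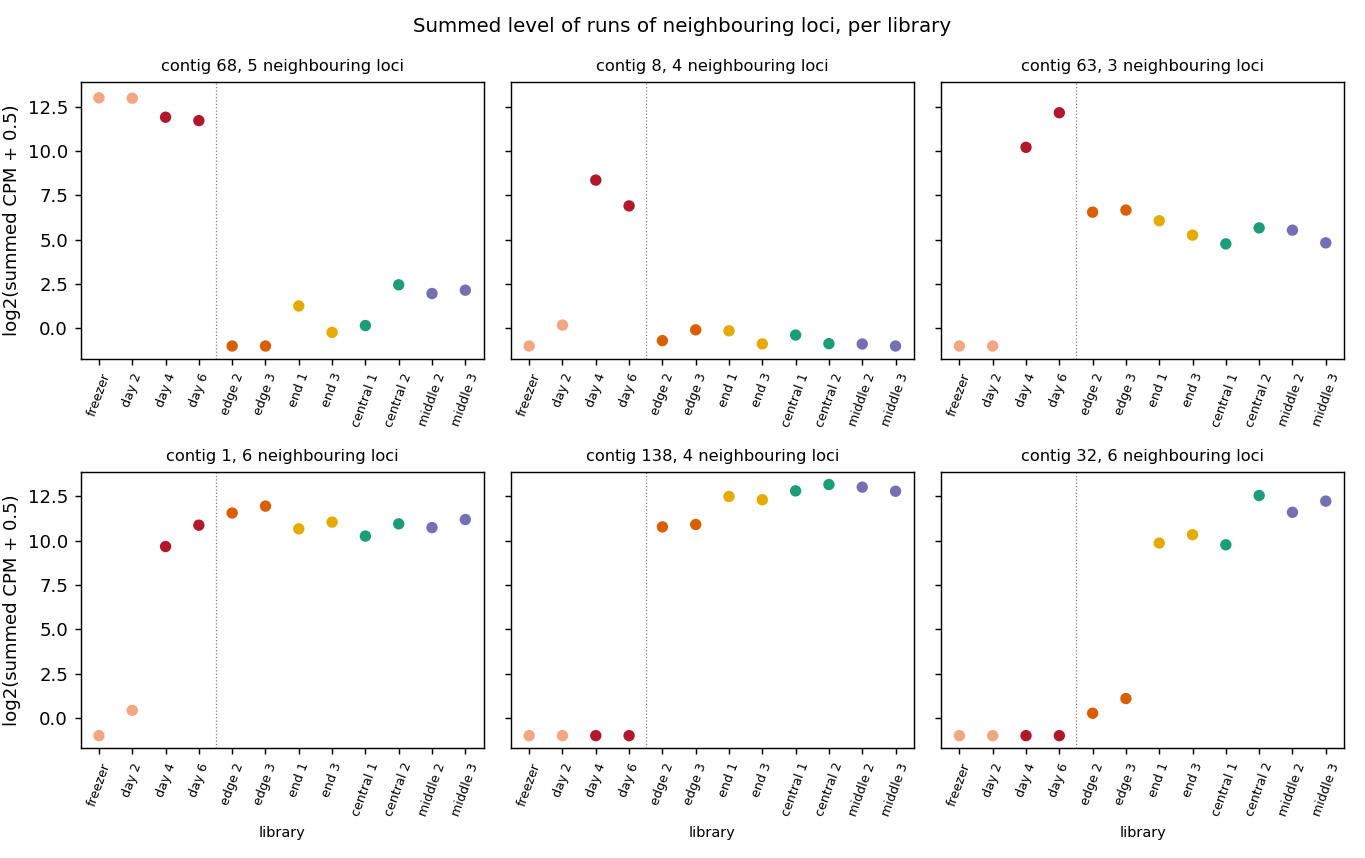
Summed level of 6 runs of neighbouring loci, as log2 of summed CPM plus 0.5 (vertical axis), in each of the 12 libraries (horizontal axis; stages left of the dotted line, mature libraries right of it). Contig 68 is high in all stages, contigs 8 and 63 peak at day 4 or day 6, contig 1 reaches the mature level late, and contigs 138 and 32 have no count in any stage.

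Within the late stages little changed between the days. Of 9378 models with at least 50 counts in the higher library, 94.9% were within 2-fold, 101 were at least 4-fold higher and 7 at least 4-fold lower at day 6 than at day 4. With 1 library a day there is no test. The 101 had a median of 18.6 CPM at day 6 and 2.47 CPM at day 4, and a median mature mean of 13.3 CPM. Above all mature libraries were 56 of them at day 6 and 36 at day 4, and below all were 28 at day 6 and 54 at day 4.

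Models counted from whole reads show both directions. The model g14401 (contig 119, bases 1123392 to 1126005) had 14.2 CPM at day 6 and 1.29 CPM at day 4, with mature values of 0.0800 to 1.25 CPM. For g26783 (contig 47, bases 2192770 to 2193587) 81 counts at day 6 stood against 1 count at day 4, a CPM ratio of 56.3 with a 95% counting interval of 9.83 to 2250. Falling were g5478 on contig 8 (bases 8659593 to 8660693), at 35.9 CPM at day 6 and 113 CPM at day 4, and g29279 on contig 205 (bases 257924 to 265489), at 3.20 CPM at day 6 and 14.4 CPM at day 4.

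The mature zone most like the late stages was the edge zone. Across the 18896 tested models, the mean log2 CPM of both late libraries had a Spearman correlation of 0.662 and 0.667 with edge zone replicates 2 and 3. With the end part it was 0.635 and 0.596, with the central zone 0.633 and 0.603, and with the middle part 0.575 and 0.571. The middle part was lowest, and the values of the end part and the central zone overlapped. These are correlations across gene models, which share libraries and are not replicates, and mature libraries correlated with each other at 0.908 to 0.990.

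Between the mature zones 4348 models differed, 24% of 18085 tested in the 8 mature libraries (edgeR, adjusted p under 0.05), and 4340 of them were also among the 18896. Over these 4340 the gap was wider, with 0.691 and 0.676 for the edge libraries and at most 0.532 for any other. Day 4 and day 6 each gave both edge libraries first. So did the freezer and day 2 libraries, at lower values of 0.540 to 0.554 over all tested models, so the order is not particular to the late stages. The values themselves were higher late, with 0.668 at day 6 for edge zone replicate 3, against 0.543 in the freezer library. This did not hold for the 460 tested models with whole-number values in all 10 late and mature libraries and no overlap. Over these the late mean correlated at -0.0399 and -0.0495 with the edge libraries and at -0.159 to -0.0832 with the other 6, and day 6 at -0.0357 and -0.0517 with the edge libraries, against -0.0083 and -0.0066 for the freezer library. The edge was still on top for the late mean, but among these models no library showed a positive correlation. The 460 are a selected part, as 54.2% to 59.7% of the models with a count had fractional values in a mature library. What that choice does to the correlations was not tested.

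Grouping zones gave no call. The correlation averaged 0.640 ± 0.0328 over the periphery, that is edge zone and end part, and 0.596 ± 0.0288 over central zone and middle part (SD, n = 4 each), a difference of 0.0441 with exact permutation p = 0.114, two-sided. Round minus elongated colonies gave 0.0473, with exact permutation p = 0.0857. Both had an adjusted p of 0.114 over the pair of splits, in an exact test whose smallest possible p is 0.0286. With 2 libraries a zone, no single zone can be told from another by such a test.

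**Figure D4:**
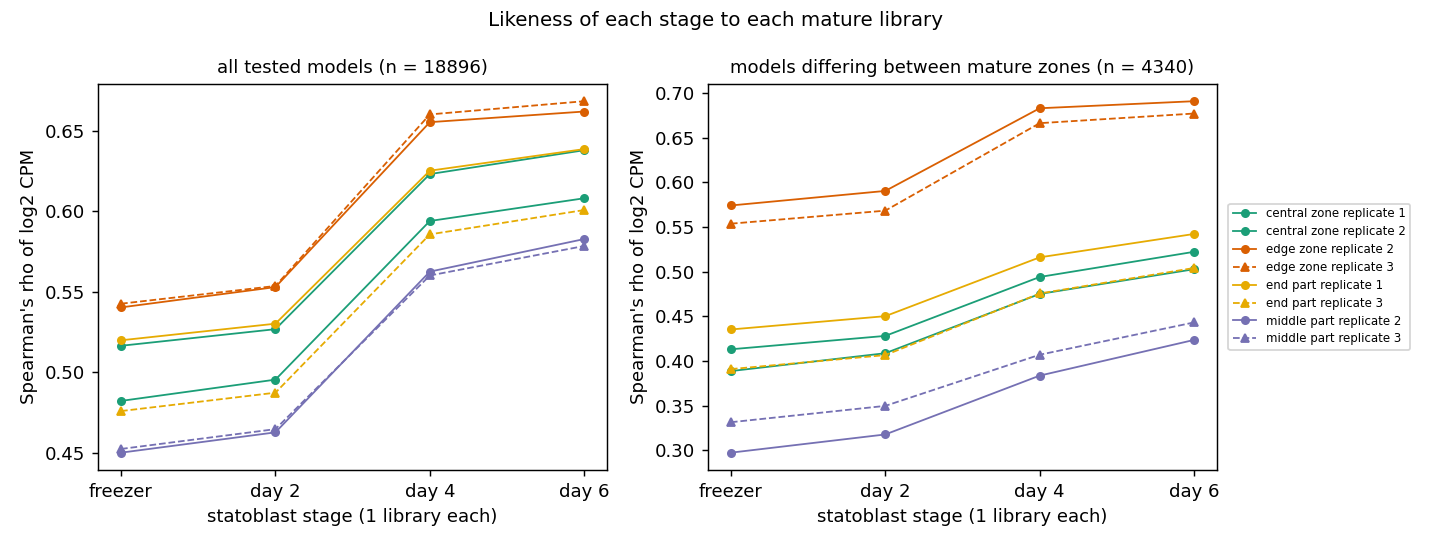
Spearman correlation of log2 CPM (vertical axis) between each statoblast stage (horizontal axis, 1 library each) and each of the 8 mature libraries, over all 18896 tested models and over the 4340 that differ between mature zones. Both edge libraries lie on top at every stage, and all lines climb between day 2 and day 4.

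Models that differ between edge and centre were followed by their levels. Models called lower at the edge than in the centre numbered 1978, 10.9% of those tested, and those called higher 2311, or 12.8% (edgeR, adjusted p under 0.05). The median of the lower ones was 0.737 CPM at day 4 and 1.02 CPM at day 6, against 2.90 and 4.07 CPM in the edge libraries and 11.2 to 14.6 CPM in the other 6 mature libraries. So the late stages lay beyond the edge, on the side away from the centre. Among the higher ones the median was 29.5 CPM at day 4 and 28.7 CPM at day 6, against 30.3 and 29.1 CPM at the edge and 14.7 to 22.4 CPM elsewhere in the mature colony. Model by model on the log2(CPM + 0.5) scale, the late mean was nearer to the edge than to the centre for 75.9% of the lower and 56.5% of the higher models, beside 52.7% of all tested. These models were chosen on mature libraries alone. For the lower ones, however, any late level below both zones counts as nearer to the edge. Their late median was 0.4 on this scale, against 1.986 at the edge and 3.732 in the centre. The 75.9% thus largely restates that late levels were low, and is no separate sign of likeness to the edge. In the test against all mature colonies, 6.88% of the lower models were called higher late and 69.8% lower, with a median log2 change of -3.75. Of these 1978 models, 421 had 0 counts in both late libraries. With those set to a floor of 3 counts per library, the median was -2.73. Of the models higher at the edge 13.7% were called higher late and 28.1% lower, with a median of -0.26, beside 26.3% and 42.8% of all tested. Models high at the edge were thus not more often called higher late.

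Set against each zone in one fit of 5 groups, the late stages had 5552 models higher and 8226 lower than the middle part, or 72.9% of 18896 (edgeR, adjusted p under 0.05). Against the central zone 5170 were higher and 8240 lower (71%), and against the end part 5068 and 8175 (70.1%). Against the edge zone 4868 were higher and 8285 lower in the late stages (69.6%). With library totals alone the balance against the edge turned, to 7218 higher and 5882 lower, and the median log2 change to 0.21, against -0.57. Falls of at least 4-fold were fewest against the edge, at 5699, against 6081 to 6224 for the other zones. Rises of at least 4-fold were not fewest there. They numbered 2021 against the edge, 1904 against the central zone, 1860 against the end part and 2398 against the middle part. The 4 comparisons share the late libraries, and the differences between their counts were not tested.

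The mitochondrial genome encodes core subunits of the respiratory chain and of ATP synthase, and its genes, on contig 594, are the only ones with names. The 14 protein models together took 5.93% of counts at day 4 and 5.41% at day 6, against 8.66% to 14.4% in the mature libraries. The mean share was 5.67% ± 0.368 (SD, n = 2) in the late stages and 11.9% ± 2.69 (SD, n = 8) in mature colonies, with no overlap (exact permutation p = 0.0444, two-sided, the smallest this design allows). All 14 were called lower in the late stages, with log2 fold changes of -2.13 to -1.15, beside 42.8% of all models tested. For 12 of the 14 the libraries did not overlap. With library totals alone as the scale, 12 of the 14 were called.

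The ATP synthase subunits showed the largest falls. MT_atp6 had 5236.6 CPM at day 4 and 4938.5 CPM at day 6, against a lowest of 10412.3, a median of 16544.5 and a highest of 20115.6 CPM in the mature libraries. Both late values were about equal and below all mature ones, and the fitted log2 change was -2.13 ± 0.41 (SE; edgeR adjusted p = 0.00053). MT_atp8 had 857.6 CPM at day 4 and 857.2 CPM at day 6, against 1253.2 to 3259.7 CPM, with a fitted log2 change of -1.93 ± 0.47 (SE; edgeR adjusted p = 0.00272).

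Cytochrome c oxidase, the terminal enzyme of the chain, fell in all 3 of its subunits. MT_cox1 had 13251.1 CPM at day 4 and 12484.9 CPM at day 6, against a lowest of 18222.8, a median of 26213 and a highest of 37157.4 CPM in the mature libraries. The groups did not overlap, and the fitted log2 change was -1.53 ± 0.36 (SE; edgeR adjusted p = 0.0021). MT_cox3 changed by -1.78 (SE 0.47) and MT_cox2 by -1.31 (SE 0.33) on the log2 scale. MT_cob, the cytochrome b of the complex that passes electrons on to cytochrome c, had 8297.5 CPM at day 4 and 7692.5 CPM at day 6. The mature libraries had 10120.9 to 18673.1 CPM, and the fitted log2 change was -1.39 (SE 0.38, edgeR adjusted p = 0.00572).

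The subunits of NADH dehydrogenase, the entry complex of the chain, fell in all 8 models, by a median of -1.49 on the log2 scale. The firmest was MT_nad5, with 2951.5 CPM at day 4 and 2663.2 CPM at day 6, against a lowest of 5254.8, a median of 5889.2 and a highest of 6852.8 CPM in the mature libraries (fitted log2 change -1.61 ± 0.29, SE; edgeR adjusted p = 0.000354). MT_nad4 changed by -1.84 (SE 0.35). The weakest were MT_nad3_0 and MT_nad3_1, the gene for subunit ND3 being listed as a pair of models, at -1.15 (SE 0.42) and -1.26 (SE 0.46). In both, middle part replicate 3 lay below both late libraries.

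Taken by day, 10 of the 14 protein models were called lower at day 4 and 12 at day 6 (edgeR, adjusted p under 0.05). The mature libraries themselves fell into 2 levels by number, with 8.66% to 8.85% in the 3 libraries numbered 3 and 12.2% to 14.4% in the 5 numbered 1 or 2. Against those numbered 3 alone, a choice made after seeing the values, the late share was lower by a difference of -3.1 percentage points and 6 of the 14 models were called. What the numbers stand for is not stated. The early libraries were at 4.44% in the freezer library and 5.61% at day 2, and the fitted log2 changes of the 14, late over early, ran from -0.01 to 0.55 with edgeR adjusted p of 0.523 or more.

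The mitochondrial ribosomal RNAs were not called on TMM scaling, unlike the protein genes. MT_rrnS had 3553 CPM at day 4 and 7572.9 CPM at day 6, against 2406.4 to 6267.9 CPM in the mature libraries, and MT_rrnL 5667.2 CPM at day 4 and 10665.8 CPM at day 6, against 3536 to 6764.5 CPM. Day 6 was above every mature library in both and day 4 within their range, and neither was called (edgeR adjusted p = 0.701 and 0.655). With library totals alone MT_rrnL was called higher in the late stages, by 0.68 on the log2 scale (edgeR adjusted p = 0.0266). The share of both rRNAs was 0.922% at day 4 and 1.82% at day 6, against 0.594% to 1.17% (exact permutation p = 0.311, two-sided). Counts of rRNA per count of the protein genes were 0.155 at day 4 and 0.337 at day 6. The mature libraries had 0.0488 to 0.111, with no overlap (exact permutation p = 0.0444, two-sided, the smallest this design allows). This ratio was not a planned test, and it contains the fall of the protein genes given above. It was 0.0285 in the freezer library, below every mature one, and 0.181 at day 2. The libraries were made from poly(A)-selected RNA, so the level of ribosomal RNA also depends on that step.

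**Figure D5:**
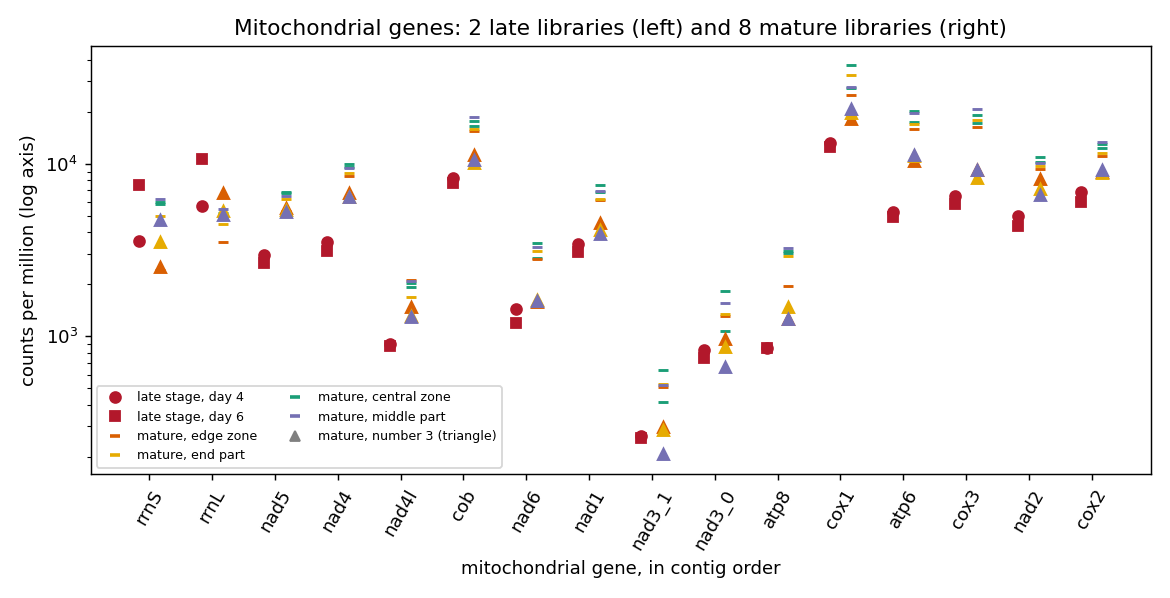
Level of the 16 mitochondrial genes (horizontal axis, in contig order) in CPM on a log axis, with the late libraries left and the 8 mature libraries right within each gene, triangles marking mature libraries numbered 3. Both late libraries lie below all mature ones in 12 of the 14 protein models, while the day 6 values of both ribosomal RNAs lie above all mature ones.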

How the data were processed

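Poly(A) RNA was made into directional libraries for sequencing, per the labels' protocols, on an Illumina HiSeq 2500 (paired-end) and a NextSeq 500 (single-end), with no word on which library went where. The submitters' processing notes name HISAT2 2.1.0 and featureCounts 1.5.1. Build, annotation and strandedness of counting: not given in the sources used here. Values deposited by the authors are expected counts, 1 column per library, unscaled and partly fractional. Of the 35949 models 7781 overlap another, and 6144 have no count.

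Counts were rounded (totals moved by at most 0.00408%) and tested in edgeR 4.0.16 (R 4.3.3; filterByExpr, TMM, glmQLFit, glmQLFTest). An SE here is the size of the log2 change over the square root of its F value, which edgeR does not give itself. DESeq2 1.42.0 gave an alternative. Runs join neighbouring loci, overlapping models counting as 1. CPM ranges and correlations used Python 3.11.15 with scipy 1.17.1. Intervals and floors cover counting error only, and p-values reflect no more than how these libraries vary. No zone held duplicate libraries, as chi-square came to 28.7 to 50.3 per model. The tests were tried on simulated data.

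Named models have whole-number values in all 12 libraries, no overlap, a call, groups apart and an average log2 CPM that reaches 5, the 2 largest each way. For late peaks and for day 6 against day 4 the 2 largest by ratio were taken, and for runs the 3 largest medians each way. Members, lists and rules were chosen with earlier results of these data known. The floor is 3 counts, the interval 95%.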

Additional observations from a re-analysis of the deposited data

Results flagged for a closer look

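In end part replicate 1, 26.6% of the models with a count had values with a fraction other than 0.5, far below the other 7 mature libraries, whose lowest was 29.6%. This library was also the shallowest mature one, with 14787598 counts. About 1 in 20 groups is picked out by chance in such a screen.

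The model g26783 (contig 47, bases 2192770 to 2193587) was above all mature libraries at day 6, with 10.4 CPM, and below all of them at day 4, with 0.184 CPM, against 0.262 to 0.843 CPM in mature colonies. The day 4 value rests on 1 count, and the difference between the days was not tested.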

How the results depend on the processing

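Alternatives were RLE factors, library totals, no filter, each library left out and, for late against mature, the settings below. Over these the count of calls stayed within 1.5 times for late against mature, for each day and for each zone, with 1 exception. Whole-number models without overlap, refitted alone, gave 282 calls, because only 374 of them passed the filter in that fit. Their median log2 change was -2.23, with 30.9% of calls higher. Filter, library totals and TMM factors were there taken from these models alone, so -2.23 is not on the scale of the -0.54 of the main fit. Late against mature had 14443 calls with 6 group means, 13307 with DESeq2's Wald test, 9254 against a 2-fold change and 10656 after thinning to 4738054 counts. Added after seeing the data, mature libraries numbered 3 alone gave 11891, and the other 5 gave 11922. A replicate block over the mature libraries gave 13076 calls; only the edge zone and the middle part share a pair of numbers, whose deviations correlated at 0.127, too few to show whether the number pairs libraries. Late against early ran from 788 to 2020 calls with 1 library left out, and RLE factors gave 1383. Late peaks numbered 63 at 2 times and 20 at 8 times the highest other library. The mitochondrial protein difference of -6.23 points ran from -6.69 to -5.87 with 1 library left out, and was -3.1 against the libraries numbered 3 and -8.1 against the other 5. None of these smaller designs can reach an exact p under 0.05, and the cause of the range was not tested. The zone difference stayed positive, from 0.0349 to 0.150, although over whole-number models the late correlations themselves were negative, at -0.159 to -0.0399. Depth limits what 0 counts shows to 0.553 CPM at day 4.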

Other observations

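The direction of change varied with the length of the gene model, from its begin to its end on the contig. Of the 5394 tested models of 20000 bases or more, 35.7% were called higher and 33.4% lower in the late stages than in mature colonies, with a median log2 fold change of 0.07. Of the 1785 models of at least 1000 and under 2000 bases, 17.8% were higher and 54.2% lower, with a median of -1.94. Under 1000 bases the shares were 24.1% higher and 44.8% lower. By level there was no steady course. Of the 2159 models with a mean log2 CPM of 6 or more, 48.7% were lower and 14.3% higher. From 4 to 6 the shares were 36% lower and 30.7% higher, and from 2 to 4 they were 40.7% and 31.3%. From 0 to 2 they were 53.8% and 20.4%, and under 0 they were 39.3% and 26.3%. Depth and the share of fractional counts moved with the groups, and their part in this was not tested.

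The shares varied between contigs as well, which was not tested. Singled out after its values were seen, contig 117 had 63.2% of 57 models called lower, against 42.8% of all models tested.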
